A study of Homo sapiens with 6 samples.

Results

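The genes described here encode surface proteins that limit attack by immune cells or by complement, or that are read by natural killer and T cells: CD200, CD276, CD47, CD46, CD55, CD59, PVR, NECTIN2, NECTIN3 and MICA. Of these 10 names, 9 had a row on a primary chromosome in the deposited table of 18164 genes, found by an exact match of the gene symbol, and MICA was not analysed here. CD200 was chosen by its measured counts, near 0 in DMSO and present with enzalutamide, so its values in that contrast are a description and carry no test. The other 8 measured genes do not owe their place to a measured value under this rule, and were tested in the fit over the whole table. The list as a whole was chosen with earlier results of these data known.

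Transcripts were sequenced from LNCaP cells, a human prostate cancer line derived from a lymph node metastasis that carries the androgen receptor. The 3 enzalutamide libraries came from cells kept for 14 days in 5 µM enzalutamide, an androgen receptor antagonist, dissolved in 0.1% DMSO, and the 3 DMSO libraries from cells given the vehicle alone. All dishes were seeded with 150000 cells and received fresh medium and agent every 72 h, and the controls were harvested at 70 to 80% confluency. The sources used here do not say how long the controls had grown, so the drug cannot be told apart from time in culture or cell density, and both groups come from a single cell line. Every value is a transcript level in cultured cells, and protein at the surface was not measured. In bulk RNA, fewer cells that carry a transcript and less of it per cell cannot be told apart.

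Several separate systems meet on this list. CD200 is an immunoglobulin-superfamily ligand whose receptor on myeloid cells restrains their activation, CD276 (B7-H3) is a member of the B7 family of co-signalling ligands, and CD47 binds SIRPA on macrophages as a signal against engulfment. CD46, CD55 and CD59 protect a cell from its host's own complement at successive steps: CD46 serves as a cofactor for the cleavage of C3b and C4b, CD55 speeds the decay of the C3 convertases, and CD59 stops the assembly of the membrane attack complex. PVR (CD155) and NECTIN2 (CD112) are adhesion molecules that bind the activating receptor CD226 and the inhibitory receptor TIGIT on natural killer and T cells, NECTIN3 pairs with other nectins at cell contacts, and MICA is a ligand of the activating receptor NKG2D.

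The libraries held 51777719, 52107644 and 42302153 counts with enzalutamide and 36869889, 42540487 and 35578160 in DMSO. KLK3, the androgen receptor target that encodes prostate-specific antigen, was at 194 ± 28.4 CPM (a count scaled to its library's TMM-adjusted size) with enzalutamide and 2582 ± 21.5 CPM in DMSO (SD, n = 3 each). MKI67, a marker of dividing cells, was at 5.69 ± 0.0902 CPM with enzalutamide and 328 ± 4.72 CPM in DMSO (SD, n = 3 each). All 12 markers of luminal prostate identity were measured (6 rose, 4 fell and 2 were not past the threshold of an adjusted p under 0.05, so 83.3% passed, against 59.2% of all genes), with a summed level of 11210 to 11667 CPM per enzalutamide library and 10203 to 10356 CPM per DMSO library. Enzalutamide replicate 1 stood apart on the second principal component, which held 5.93% of the variance, against 90.8% on the first component, which separated the groups. Across 15658 genes with a mean count of at least 20, its log2 deviation from enzalutamide replicates 2 and 3 ran with the GC content of the transcript (Spearman rho 0.767 across genes, which are not independent replicates).

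Among the 8 genes other than CD200, CD276, CD59 and NECTIN2 rose with enzalutamide, CD55 and PVR fell, and CD47, CD46 and NECTIN3 did not pass the threshold (edgeR quasi-likelihood test, Benjamini-Hochberg adjusted p under 0.05 over all genes). Over all genes tested 59.2% passed, 30.0% higher and 29.2% lower, so 5 of 8 (62.5%) lies near that background. The median log2 change of the 8 genes was 0.11, against -0.00 over all genes, and the median size of the change regardless of sign was 0.67, against 0.55 over all genes. In 5 of the 8 genes the libraries of the groups did not overlap, in a table where 66.4% of genes had no overlap, 33.4% with enzalutamide higher and 33.0% with enzalutamide lower. Members of 1 system moved in different directions: among the complement regulators CD59 rose and CD55 fell, and among the nectins NECTIN2 rose and PVR fell.

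**Figure D1:**
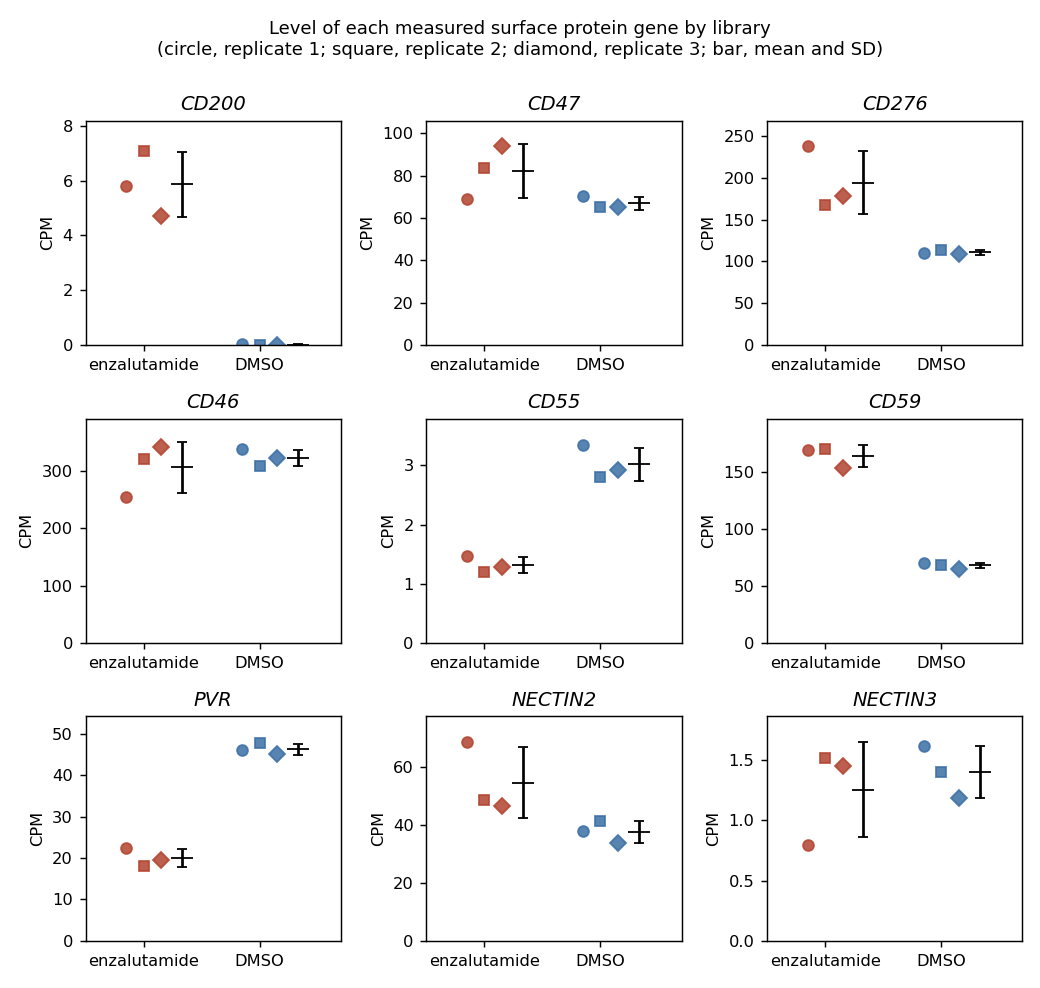
Level in CPM (linear axis from 0) of the 9 measured genes in each library, enzalutamide left and DMSO right, with the mean and SD of 3 libraries beside the points. CD200, CD276, CD59 and NECTIN2 lie higher in every enzalutamide library than in any DMSO library, CD55 and PVR lie lower, and the groups overlap for CD47, CD46 and NECTIN3.

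CD200 (chr3:112332347-112362812 in hg38, plus strand) had 305, 375 and 198 counts in the enzalutamide libraries and 1, 0 and 0 counts in the DMSO libraries. As a level this was 5.80, 7.09 and 4.71 CPM with enzalutamide and 0.0274, 0 and 0 CPM in DMSO. All enzalutamide libraries carried the transcript and a single read was counted over the 3 controls. From the summed counts the ratio was 678-fold, with an exact 95% interval of 121 to 26813 that covers counting error only. Of all 18164 genes, 110 (0.606%) had at most 3 counts over the DMSO libraries, 58 of them protein-coding genes on primary chromosomes. Every row had at least 9 counts in at least 3 libraries, so all 110 met that floor through the enzalutamide libraries alone. CD200 was chosen for this same pattern, so its place among them is a description with no test. CD200 had the second highest enzalutamide level of those 58, after SHH (51.8 CPM), the ligand of hedgehog signalling, and before SIX2 (4.20 CPM), BTLA (3.58 CPM), DACH1 (3.40 CPM) and FAP (2.11 CPM). The median of these genes was 0.588 CPM with enzalutamide. Part of the CD200 row is shared with the long non-coding RNA AC112487.1, whose exons overlap 355 bases of CD200 exon on the same strand.

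The promoter window of CD200 is shown because CD200 was near 0 in every control and present in every treated library. It spans 250 bases before and 50 after the start that RefSeq gives on GRCh38.p14, at chr3:112332906-112333205 on the plus strand, and capitals mark the only match to the searched motifs, TATAAA. That start lies 809 bases inside the gene as counted in the table.
CD200: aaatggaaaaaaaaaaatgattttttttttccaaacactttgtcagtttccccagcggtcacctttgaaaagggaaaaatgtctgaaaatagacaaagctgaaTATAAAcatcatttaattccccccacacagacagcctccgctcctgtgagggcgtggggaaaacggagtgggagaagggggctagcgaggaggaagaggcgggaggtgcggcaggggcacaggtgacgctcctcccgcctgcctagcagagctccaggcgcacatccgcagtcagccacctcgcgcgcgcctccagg
The match begins at position -147 from the start site, and 11.5% of the 35116 promoter windows in the RefSeq table hold TATAAA on either strand. The window has 15 CpG sites, against a median of 14 over all windows, and a GC content of 53.7%, against a median of 58.7%. The other motifs were searched on both strands as well. They were the GC box GGGCGG, the CCAAT box, the AP-1 site TGACTCA, the cyclic AMP element TGACGTCA, the E-box CACGTG, the androgen receptor half-site TGTTCT, the full androgen response element, which contains that half-site, and the spaced palindrome GAANNTTC. GGGCGG, held by 45.0% of all windows, was found in a window of every listed gene except CD200 and PVR. A match is a string of letters in the reference and no measure of binding.

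CD276 (chr15:73683966-73714514) rose 1.75-fold. Its level was 237, 167 and 178 CPM with enzalutamide and 110, 114 and 109 CPM in DMSO, without overlap. The log2 change was 0.81 ± 0.13 (SE; edgeR adjusted p = 0.00044), higher in 3 of 3 enzalutamide libraries than in any control. Without enzalutamide replicate 1, the highest library, the log2 change was 0.65. Per kilobase of the counted length CD276 reached 35.4 ± 6.93 RPKM with enzalutamide and 20.2 ± 0.508 RPKM in DMSO (SD, n = 3 each). With enzalutamide its mean was close to that of CD46 at the top of the list, with overlapping libraries. It was above CD46 in enzalutamide replicate 1 (43.3 against 29.4 RPKM). It was below CD46 in enzalutamide replicates 2 (30.4 against 36.9 RPKM) and 3 (32.4 against 39.3 RPKM), and in every DMSO library.

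CD47 (chr3:108043091-108091862, minus strand) did not pass the threshold. It was measured at 68.8, 83.8 and 94.0 CPM with enzalutamide and 70.6, 65.0 and 65.4 CPM in DMSO, and enzalutamide replicate 1 lay inside the range of the controls. The log2 change was 0.29 ± 0.12 (SE; edgeR adjusted p = 0.0616). This call depended on a single library and on the scaling: without enzalutamide replicate 1 the log2 change was 0.42 (edgeR adjusted p = 8.02e-07), and with upper quartile scaling it was 0.42 (edgeR adjusted p = 0.014), a scaling that moved the median of all genes by 0.126. In the authors' deposited table the false discovery rate of CD47 was 0.0488.

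The 3 complement regulators differed in level as well as in direction. CD59 (chr11:33703010-33736491, minus strand) rose 2.41-fold, with 169, 171 and 154 CPM with enzalutamide and 70.3, 69.0 and 65.4 CPM in DMSO. Its log2 change was 1.27 ± 0.09 (SE; edgeR adjusted p = 1.37e-06), and every enzalutamide library was above every control. CD55 (chr1:207321376-207386804) fell 2.29-fold, at 1.46, 1.19 and 1.28 CPM with enzalutamide and 3.34, 2.80 and 2.91 CPM in DMSO. The log2 change of CD55 was -1.20 ± 0.16 (SE; edgeR adjusted p = 0.000122), again with no overlap. CD46 (chr1:207752057-207795513) had 256, 322 and 342 CPM with enzalutamide and 338, 310 and 322 CPM in DMSO, and the groups overlapped. Its log2 change of -0.08 ± 0.11 did not pass (SE; edgeR adjusted p = 0.584), and it was 0.05 with upper quartile scaling and 0.05 without enzalutamide replicate 1.

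CD46 and CD55 both lie in the complement regulator cluster of chromosome 1, 365 kb apart in the table, while CD59 lies on chromosome 11. CD59 and CD55 are held in the membrane by a glycosylphosphatidylinositol (GPI) anchor and CD46 by a transmembrane segment. Per length, CD46 was the most abundant of the 3 in both groups (35.2 ± 5.18 RPKM with enzalutamide and 37.1 ± 1.63 RPKM in DMSO, SD, n = 3 each). CD59 stood at 15.6 ± 0.893 RPKM with enzalutamide and 6.45 ± 0.237 RPKM in DMSO, and CD55 at 0.222 ± 0.0235 RPKM with enzalutamide and 0.511 ± 0.0478 RPKM in DMSO (SD, n = 3 each). Ratios of counts per length within a library need no scaling between libraries. They keep any deviation that differs between genes, such as that of enzalutamide replicate 1 with GC content. CD59 over CD55 was 64.7, 80.2 and 67.0 in the enzalutamide libraries and 11.8, 13.7 and 12.6 in the DMSO libraries, 5.55-fold higher with enzalutamide. CD59 over CD46 was 0.545, 0.438 and 0.370 with enzalutamide and 0.171, 0.183 and 0.167 in DMSO, 2.56-fold higher with enzalutamide. For each of the 7 ratios computed among listed genes and CD274 the groups did not overlap. Every pair held at least 1 gene whose own groups did not overlap, and the share over all gene pairs was not computed. For each ratio the exact two-sided permutation test gave p = 0.1 (0.1 after Benjamini-Hochberg adjustment over the 7). That is the smallest p it can give with 3 libraries against 3.

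**Figure D2:**
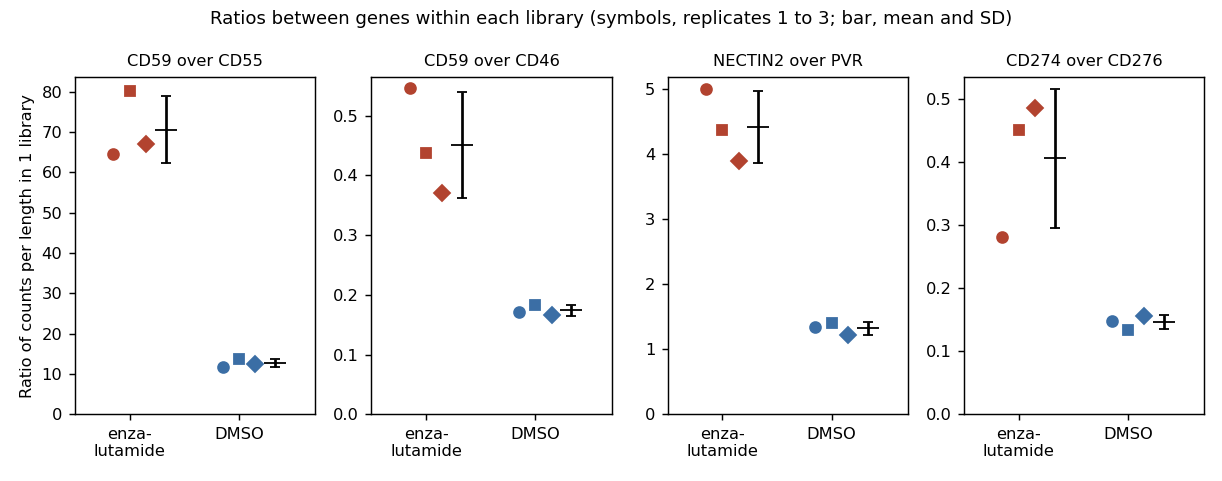
Ratio of counts per length between 2 genes within each library (linear axes from 0), enzalutamide left and DMSO right, with the mean and SD of 3 libraries. CD59 over CD55, CD59 over CD46, NECTIN2 over PVR and CD274 over CD276 are each higher in all 3 enzalutamide libraries than in any DMSO library.

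PVR (chr19:44643798-44666162) fell 2.31-fold, with 22.4, 18.1 and 19.5 CPM in the enzalutamide libraries and 46.0, 47.7 and 45.1 CPM in the DMSO libraries. The log2 change was -1.21 ± 0.11 (SE; edgeR adjusted p = 9.17e-06), and no enzalutamide library reached the controls. Of its counted length of 6098 bases, 121 are shared with exons of CEACAM19 on the same strand. NECTIN2 (chr19:44846175-44889223), 180 kb away, moved the other way, at 68.5, 48.5 and 46.6 CPM with enzalutamide and 37.7, 41.3 and 33.6 CPM in DMSO. It rose 1.45-fold (log2 change 0.54 ± 0.16, SE; edgeR adjusted p = 0.0134), and without DMSO replicate 3 the change of 0.46 did not pass (edgeR adjusted p = 0.0625). Without enzalutamide replicate 1, the highest library, it was 0.35 and did pass (edgeR adjusted p = 8.31e-05). NECTIN2 over PVR within a library was 4.99, 4.36 and 3.89 with enzalutamide and 1.34, 1.41 and 1.21 in DMSO, 3.33-fold higher with enzalutamide.

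NECTIN3 (chr3:111070071-111275563) was the lowest of the measured genes per length with enzalutamide, at 0.162 ± 0.0512 RPKM, against 0.182 ± 0.0276 RPKM in DMSO (SD, n = 3 each). It had 0.798, 1.51 and 1.45 CPM with enzalutamide and 1.61, 1.40 and 1.19 CPM in DMSO. Enzalutamide replicate 1 was lower than every other library and the remaining values overlapped. The log2 change of -0.17 ± 0.26 did not pass (SE; edgeR adjusted p = 0.593), and it was 0.09 without that library.

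Ordered per length, the enzalutamide libraries gave CD276 and CD46 first, then CD59 and NECTIN2 (14.6 ± 3.24 RPKM), then CD47 (9.99 ± 1.54 RPKM), PVR (3.28 ± 0.354 RPKM), CD200 (1.96 ± 0.399 RPKM), CD55 and NECTIN3 (SD, n = 3 each). The libraries of CD276 overlapped those of CD46, and those of CD59 overlapped those of NECTIN2, while the other neighbours in this order lay apart. Both overlaps rested on enzalutamide replicate 1, where CD276 was above CD46 and NECTIN2 (18.3 RPKM) above CD59 (16.0 RPKM). In enzalutamide replicates 2 and 3 CD46 was above CD276, and CD59 (16.2 and 14.5 RPKM) above NECTIN2 (13.0 and 12.4 RPKM). In DMSO the order was CD46, CD276, NECTIN2 (10.0 ± 1.03 RPKM), CD47 (8.14 ± 0.377 RPKM), PVR (7.59 ± 0.219 RPKM), CD59, CD55, NECTIN3 and CD200, and all neighbours lay apart. CD59 thus stood above PVR and CD47 with enzalutamide and below both in DMSO, and CD200 stood above CD55 and NECTIN3 with enzalutamide and at the bottom in DMSO.

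Within the enzalutamide group, replicate 1 sat on different sides of replicates 2 and 3 from gene to gene. Its CPM over the mean of replicates 2 and 3 was 1.44 for NECTIN2, 1.38 for CD276 and 1.19 for PVR, the listed genes with the highest transcript GC content (59.4%, 61.0% and 56.5%). The ratio was 0.771 for CD46, 0.774 for CD47 and 0.539 for NECTIN3, whose transcripts hold 37.7%, 38.4% and 38.9% GC. CD59 (1.04), CD200 (0.983) and CD55 (1.18) lay between, at 45.5%, 42.8% and 41.4% GC. The part of GC content in these values was not tested. Without that library CD276, CD59 and NECTIN2 were still higher and CD55 and PVR still lower past the threshold.

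**Figure D3:**
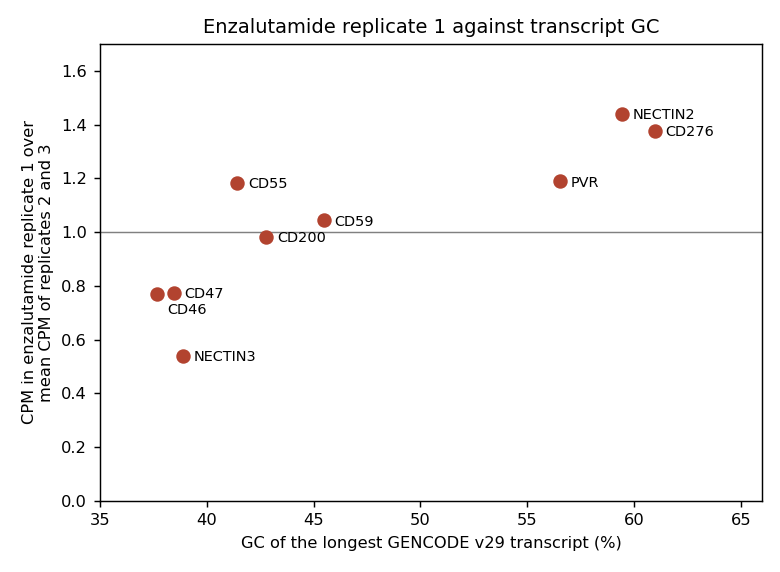
CPM in enzalutamide replicate 1 over the mean CPM of enzalutamide replicates 2 and 3 (y axis, linear from 0, line at 1) against the GC content of the longest GENCODE v29 transcript in percent (x axis) for the 9 measured genes. NECTIN2, CD276 and PVR, with the highest GC content, lie above 1, and CD46, CD47 and NECTIN3, with the lowest, lie below 1.

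Around CD200, 18 other genes of the table lay within 1 Mb on chromosome 3, of which 11 were past the threshold and higher and 1 lower. Of the 11, 6 had under 9 counts in at least 1 DMSO library: BTLA, CCDC80, AC092894.1, AC112487.1, AC092692.1 and AC078785.1. Every row of the table had at least 9 counts in at least 3 libraries, and these 6 met that floor through the enzalutamide libraries, so their place in the table depended on being present there and their values are a description with no test. Among the other 12 neighbours 5 rose, 1 fell and 6 were not past the threshold (50% past, against 59.2% of all genes, 30.0% higher and 29.2% lower), with a median log2 change of 0.18.

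BTLA, an inhibitory receptor best known on lymphocytes (chr3:112463966-112499472, minus strand), begins 167 kb downstream of the CD200 start. It had 193, 211 and 130 counts with enzalutamide and 1, 0 and 0 counts in DMSO, the same count in every DMSO library as CD200. From the summed counts the ratio was 412-fold (exact 95% interval 73.7 to 16320, counting error only). None of the 15 leukocyte markers fixed as a list, PTPRC, CD3E and HLA-DRA among them, had a measured row on a primary chromosome. HLA-DRA was counted on alternate scaffolds, with 355 counts on 1 and 85 on another over the enzalutamide libraries and 0 on each in DMSO. Its rows met the table's floor through the enzalutamide libraries alone, so these values are a description with no test.

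CCDC80, which encodes a secreted matrix-associated protein (chr3:112596794-112649530, minus strand), had 870, 814 and 681 counts with enzalutamide and 8, 2 and 2 counts in DMSO. The fitted log2 change was 7.21. The long non-coding RNA AC092894.1, between CD200 and BTLA, had 454, 533 and 417 counts with enzalutamide and 10, 8 and 8 counts in DMSO (fitted log2 change 5.37). AC112487.1, which shares exon sequence with CD200, had 29, 41 and 25 counts with enzalutamide and 0 in each DMSO library, at least 8.06-fold higher against a floor of 3 counts per library. BTLA, CCDC80 and these 2 RNAs had at most 10 counts in any control and at least 25 in any treated library. AC092692.1 had 16, 27 and 12 counts with enzalutamide and 5, 2 and 0 counts in DMSO (fitted log2 change 2.54), and AC078785.1 had 18, 39 and 11 counts with enzalutamide and 4, 8 and 5 counts in DMSO (fitted log2 change 1.59).

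Other neighbours changed less. ATG3, the E2-like enzyme of autophagosome formation, rose 2.74-fold (log2 change 1.46 ± 0.10, SE; edgeR adjusted p = 1.38e-06), and the adjoining transporter gene SLC35A5, on the opposite strand, rose 1.54-fold. The pair shares 124 exon bases, and the sources used here do not say whether reads were assigned by strand. On the other side of CD200, PHLDB2 (log2 change 1.19) and C3orf52 (1.17) rose at under 1 CPM in both groups, and PHLDB2 shares 322 exon bases with PLCXD2 on the same strand. BOC, a co-receptor of hedgehog signalling (log2 change 0.59, sharing 530 exon bases with CFAP44), also rose at under 1 CPM (edgeR adjusted p = 0.0485). BOC passed when DMSO replicate 2 was left out but with none of the other libraries left out (0.47 to 0.62), and it did not pass with the DESeq2 Wald test (0.60, adjusted p = 0.114). NEPRO fell by 0.34 with an adjusted p of 0.0481 in edgeR, a call lost under each of the 3 other scalings (-0.33 to -0.22) and without any 1 of enzalutamide replicate 2 and the 3 DMSO libraries (-0.40 to -0.31). PLCXD2 (-0.02), ABHD10 (0.27, and 0.40 and past it without enzalutamide replicate 1), AC074044.1 (0.09), GTPBP8 (-0.31, and -0.21 and past it without that library), CFAP44 (-0.37) and AC112128.1 (-0.30) did not pass the threshold. CD200R1, the receptor gene of CD200, was not analysed here.

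**Figure D4:**
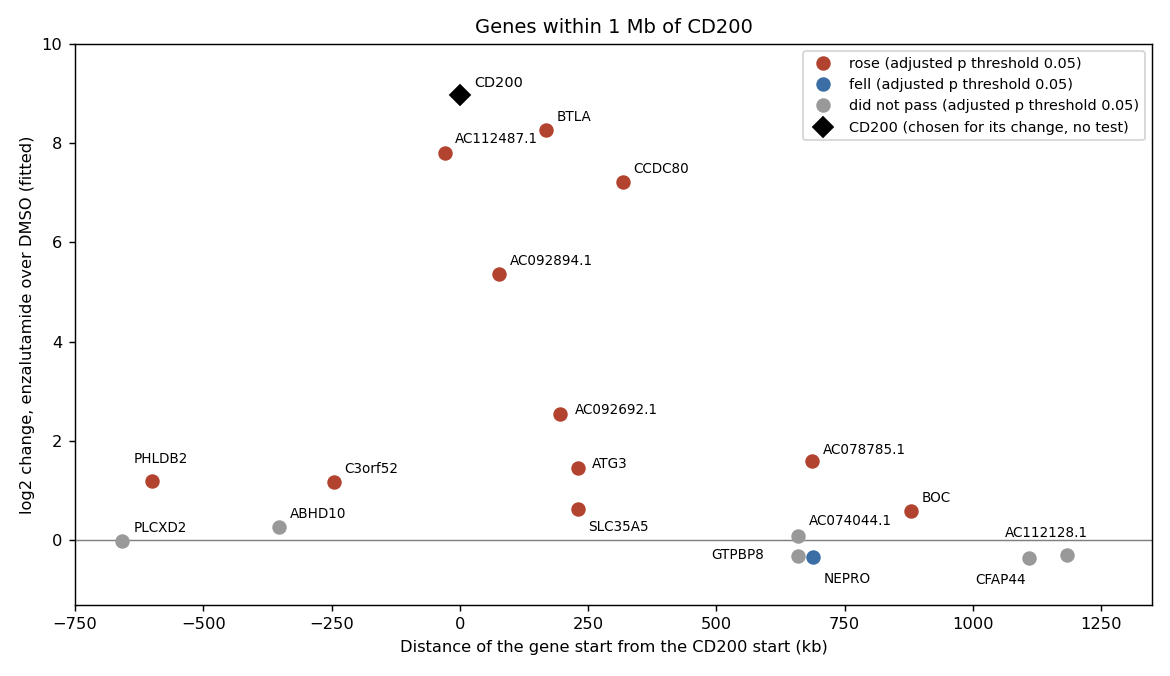
Fitted log2 change (enzalutamide over DMSO) of CD200 and the 18 other genes within 1 Mb of it, against the distance of each gene's start from the CD200 start in kb. Changes above 5 gather between the start of AC112487.1 and that of CCDC80, with AC092692.1 (2.54), ATG3 (1.46) and SLC35A5 (0.62) in between. Values for CD200, BTLA and AC112487.1 rest on at most 1 DMSO count. BTLA, CCDC80, AC092894.1, AC112487.1, AC092692.1 and AC078785.1 entered the table through the enzalutamide libraries alone, whatever their colour.

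The promoter windows of BTLA and CCDC80 are shown for comparison with that of CD200, as the 2 protein-coding neighbours with the highest fitted change. They lie at chr3:112499423-112499722 and chr3:112641094-112641393, both on the minus strand and printed in the direction of transcription (RefSeq, GRCh38.p14), with motif matches in capitals. The RefSeq start of BTLA is that of the table, and that of CCDC80 lies 8.39 kb inside the gene as counted.
BTLA: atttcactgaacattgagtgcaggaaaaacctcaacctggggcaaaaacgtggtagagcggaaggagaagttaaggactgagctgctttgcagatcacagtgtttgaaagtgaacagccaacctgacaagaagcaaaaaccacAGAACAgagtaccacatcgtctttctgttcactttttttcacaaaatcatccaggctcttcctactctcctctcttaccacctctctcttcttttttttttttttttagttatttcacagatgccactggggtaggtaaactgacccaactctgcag
CCDC80: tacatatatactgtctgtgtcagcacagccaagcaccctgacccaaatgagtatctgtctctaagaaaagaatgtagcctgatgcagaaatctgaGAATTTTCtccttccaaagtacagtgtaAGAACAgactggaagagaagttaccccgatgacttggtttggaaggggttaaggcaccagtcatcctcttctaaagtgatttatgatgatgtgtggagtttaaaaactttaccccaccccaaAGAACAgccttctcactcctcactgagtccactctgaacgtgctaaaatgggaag
Both hold TGTTCT read on the opposite strand (AGAACA as printed), at position -107 in BTLA and at positions -127 and -5 in CCDC80, and 14.8% of all windows hold it on either strand. Among the other listed genes and neighbours it was found in CD46 (-121 and -137 in its overlapping windows), which did not pass the threshold, and in ATG3 (-154), which rose. CCDC80 also holds GAANNTTC at position -155, which 6.77% of windows hold. The full androgen response element was searched only as its perfect palindrome, with no mismatch allowed outside the spacer. That string was in 1 of the 35116 windows and in none of these 3. Elements that depart from it were not searched for, so their absence was not shown. BTLA had 3 CpG sites at 42.7% GC and CCDC80 2 CpG sites at 43.3% GC, fewer than the 15 of CD200. At most as many CpG sites were found in 24.5% of all windows for BTLA, 18.2% for CCDC80 and 52.5% for CD200.

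The 5 protein-coding genes whose pattern over the 6 libraries was most like that of CD200, by Pearson r of log2(CPM + 0.5), were BTLA, PHYH, NRG2, HGD and TMEM116, with r of at least 0.9992. In total 458 genes had an r over 0.99 over these 2 groups of 3 libraries, so r ranks them only narrowly. PHYH, which starts the alpha-oxidation of phytanic acid, was at 130 ± 6.79 CPM with enzalutamide and 61.2 ± 0.701 CPM in DMSO (SD, n = 3 each). NRG2, a ligand of the ERBB receptors, was at 0.754 ± 0.0621 CPM with enzalutamide and 0.00912 ± 0.0158 CPM in DMSO (SD, n = 3 each). HGD, an enzyme of tyrosine breakdown, was at 23.2 ± 1.12 CPM with enzalutamide and 14.6 ± 0.0355 CPM in DMSO, and TMEM116 at 24.7 ± 0.763 CPM with enzalutamide and 12.7 ± 0.0612 CPM in DMSO (SD, n = 3 each).

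CD200 is also a known transcript of endothelium and some stromal cells, so their markers stand beside it. Of 12 endothelial and fibroblast markers 7 were measured, 3 of them higher, 2 lower and 2 not past the threshold (71.4% past it, against 59.2% of all genes), and ESAM, PDGFRB and LUM met the table's floor through the enzalutamide libraries alone. Their summed level was 21.3 to 25.4 CPM per enzalutamide library and 24.4 to 27.0 CPM per DMSO library. EMCN, an endothelial sialomucin, rose to 2.79 ± 0.431 CPM with enzalutamide, against 0.617 ± 0.197 CPM in DMSO, and VWF fell to 7.24 ± 2.00 CPM, against 11.3 ± 1.15 CPM in DMSO (SD, n = 3 each), a change of -0.64 (log2) that did not pass without enzalutamide replicate 2 (-0.54) or without DMSO replicate 2 (-0.56). The fibroblast collagens differed in direction, with COL3A1 higher (log2 change 1.78) and COL1A1 lower (-0.49). PECAM1, CDH5 and KDR were not analysed here. Their part in the CD200 value was not tested.

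B7 family genes moved in both directions: of 10 measured, CD276 included, 4 rose and 1 fell, 5 missed the threshold, and the median log2 change was 0.21. The 50% past the threshold compares with 59.2% of all genes. CD274 (PD-L1), the ligand of the receptor PD-1, rose 4.70-fold, with 50.05, 56.4 and 64.9 CPM with enzalutamide and 12.2, 11.5 and 12.8 CPM in DMSO (log2 change 2.23 ± 0.13, SE; edgeR adjusted p = 2.76e-07). Every enzalutamide library was above every control. CD274 over CD276 per length was 0.281, 0.451 and 0.487 with enzalutamide and 0.149, 0.135 and 0.156 in DMSO, so CD276 stayed the more abundant of the pair per length in all 6 libraries. BTN2A2, a butyrophilin, rose (log2 change 0.79), as did NCR3LG1 (0.42), the ligand of the natural killer receptor NKp30, and BTN3A2 fell (-0.59).

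Of 9 measured nectins, nectin-like proteins and partners 5 rose, 3 fell and NECTIN3 did not pass (median log2 change 0.38). That is 88.9% past the threshold, against 59.2% of all genes, of which 30.0% were higher and 29.2% lower. NECTIN1, an adhesion partner of NECTIN3, fell 2.04-fold, with 28.1, 19.96 and 18.3 CPM with enzalutamide and 43.1, 48.4 and 44.1 CPM in DMSO (edgeR adjusted p = 0.000304). NECTIN4 rose 1.77-fold, with 36.7, 29.9 and 32.3 CPM with enzalutamide and 16.96, 19.5 and 19.5 CPM in DMSO (edgeR adjusted p = 0.000232). Neither gene's groups overlapped. CADM1 (log2 change 1.51) and CADM4 (1.33), nectin-like adhesion molecules, rose, and CADM2 fell (-1.82). The receptors TIGIT, CD226, CD96 and PVRIG were not analysed here.

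Of 6 measured complement regulators 4 rose, with CD55 the 1 that fell and CD46 not past the threshold (median log2 change 2.00), or 83.3% past it, against 59.2% of all genes. SUSD4, a sushi-domain inhibitor of complement, rose 35.9-fold, with 33.6, 29.2 and 28.0 CPM with enzalutamide and 0.821, 0.9504 and 0.735 CPM in DMSO (edgeR adjusted p = 4.36e-09). CLU (clusterin), a chaperone that also binds the membrane attack complex, rose 11.0-fold to 185 ± 40.2 CPM with enzalutamide, against 16.7 ± 0.508 CPM in DMSO (SD, n = 3 each; edgeR adjusted p = 5.28e-08). CSMD1, a large sushi-domain protein, rose 6.63-fold to 453 ± 21.6 CPM with enzalutamide, against 68.3 ± 3.92 CPM in DMSO (SD, n = 3 each; edgeR adjusted p = 6.76e-09). CD59 had the smallest increase of the 4. Of 4 measured complement components C5 and CFP met the table's floor through the enzalutamide libraries alone, and the other 2, the proteases C1R (6.33-fold) and C1S (1.55-fold), rose; C1R shares 672 exon bases with C1RL on the same strand.

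**Figure D5:**
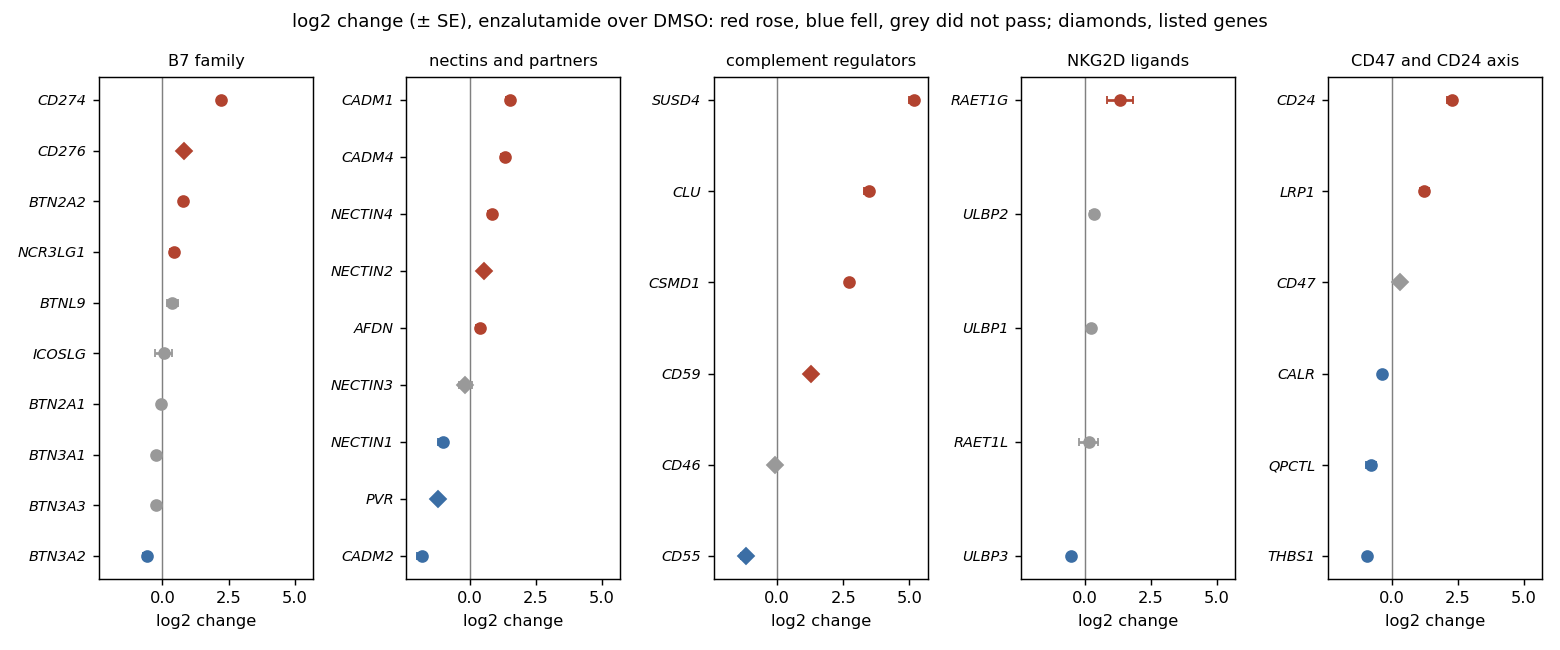
Log2 change with its SE (enzalutamide over DMSO, from 3 libraries each) for the measured genes of 5 lists, 1 panel a list, with the listed surface protein genes as diamonds and CD200 left out. In the complement panel SUSD4, CLU, CSMD1 and CD59 lie to the right of 0 and CD55 to the left, and in the nectin panel NECTIN2 lies to the right and PVR and NECTIN1 to the left.

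Of 5 measured NKG2D ligands 1 was past the threshold and higher, 1 fell and 3 missed it, with a median log2 change of 0.25 (40% past it, against 59.2% of all genes). ULBP3 fell (log2 change -0.50; edgeR adjusted p = 0.00921), and ULBP1 (0.25), ULBP2 (0.37) and RAET1L (0.16) did not pass. RAET1G (1.35), the 1 that passed upward, and RAET1L were under 1 CPM and met the table's floor through the enzalutamide libraries alone. ULBP1 passed without enzalutamide replicate 1 (0.29) and with upper quartile scaling (0.38). ULBP2, at an edgeR adjusted p of 0.0502, passed without enzalutamide replicate 3 (0.41), under each of the 3 other scalings (0.37 to 0.49) and with the filter of at least 1 CPM in 3 libraries (0.38), and the number past the threshold was 1 of 5 without DMSO replicate 2 or without DMSO replicate 3. These genes resemble one another in sequence, so their reads may be split. MICB, like MICA, was not analysed here.

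CD24, another signal against engulfment, was measured beside 4 genes tied to CD47 or to engulfment (QPCTL, THBS1, CALR and LRP1). Of these, CD24 included, 2 rose and 3 fell, where 59.2% of all genes passed. CD24 rose 4.80-fold to 5.73 ± 0.543 CPM with enzalutamide, against 1.19 ± 0.235 CPM in DMSO (SD, n = 3 each; edgeR adjusted p = 2.51e-06), a value left uncertain by the near-identical copies of this gene. QPCTL, the enzyme that modifies CD47 for binding by SIRPA, fell (log2 change -0.80), as did THBS1 (-0.92), a secreted ligand of CD47. LRP1, the receptor of surface calreticulin, rose (1.23), and CALR, which encodes calreticulin, fell (-0.37). SIRPA was not analysed here.

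The genes that build and attach the GPI anchor of CD55 and CD59 had 9 of 28 members higher, 5 lower and 14 not past the threshold, with a median log2 change of 0.11 (50% past it, against 59.2% of all genes). PIGA, the catalytic subunit of the first step of anchor synthesis, fell 2.64-fold, with 9.07, 13.4 and 14.2 CPM with enzalutamide and 33.2, 31.4 and 32.0 CPM in DMSO (edgeR adjusted p = 4.37e-05). PIGZ, which adds a further mannose to the anchor, rose (2.03), as did PGAP1 (0.75), an inositol deacylase that remodels it, and PGAP6, a phospholipase that acts on anchored proteins, fell (-0.89). Without enzalutamide replicate 1, 22 of the 28 passed, and without DMSO replicate 1, 9 passed. The count over all genes moved the same way. It was 10754 with every library, 12924 without enzalutamide replicate 1 and 9151 without DMSO replicate 1. Of 10 proteases and cofactors that shed surface ligands, 4 fell, 1 rose and 5 did not pass (50% past the threshold, against 59.2% of all genes). Without enzalutamide replicate 1, where more of all genes passed, all 10 passed in one direction or the other. ADAM9 (log2 change -1.49), ADAM8 (-0.77), PDIA6 (-0.50), a disulfide isomerase, and RHBDF2 (-1.43), a partner of ADAM17, fell, and ADAM10 rose (0.48), whereas ADAM17 itself did not pass (-0.36; edgeR adjusted p = 0.0507). PDIA6 shares 1033 of its 4101 exon bases with ATP6V1C2 on the opposite strand, and ADAM17 shares 1323 of 10728 with IAH1, also opposite. Whether reads were assigned by strand is not stated. Of 7 measured further checkpoint ligands 5 were past the threshold and higher and 2 lower, against 59.2% of all genes past it, and FGL1 and NT5E met the table's floor through 1 group alone. Among the others were CEACAM1 (0.97), CD58 (0.67), the adhesion ligand of CD2, and TNFSF4 (0.43), the ligand of OX40, which rose, and TNFSF9 (-1.26), the ligand of CD137, which fell. CD58 did not pass without enzalutamide replicate 2 (0.63), enzalutamide replicate 3 (0.55) or DMSO replicate 2 (0.48), and TNFSF4 did not pass without any 1 of enzalutamide replicates 2 and 3 and DMSO replicates 1 and 2 (0.37 to 0.40).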

How the data were processed

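Poly(A) RNA was sequenced as paired reads of 100 bases from RNA with an integrity number of 10, per the labels' protocols. The submitters' processing notes name the genome hg38 and, as tools, edgeR 3.20.8, Subread 1.6.5, featureCounts, STAR 2.5 and bcl2fastq. The annotation release and the strand setting of the counting are not given in the sources. The deposited table gives raw read counts per gene and library, per the file headers, for 18164 rows, 236 of them on alternate scaffolds, and in every row the third highest count was at least 9. It also gives log2 values and p-values that the authors computed, of which the authors' false discovery rate is quoted once for comparison.

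The main test was the robust quasi-likelihood F test of edgeR 4.0.16 (R 4.3.3) with group as the single term and 4 residual degrees of freedom, after trimmed mean of M values (TMM) scaling and filterByExpr, which removed no row. Benjamini-Hochberg adjustment ran over all genes, with a threshold of 0.05. CPM uses TMM-scaled library sizes, RPKM divides it by the table's gene length in kb, and an SE is the size of the log2 change over the square root of F. Exact 95% intervals and the floor of 3 counts per library cover counting error only. The labels do not say whether replicates were separate cultures: the p-values then reflect just the spread among these libraries, which may be technical. Replicates differed by more than sampling noise (chi-square per degree of freedom at least 3.79).

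The surface protein genes, the 12 context lists and the tests were chosen with earlier results of these data known. Lists were matched by symbol or gene ID on primary chromosomes. Named were the listed genes, their direct partners, the 4 largest changes past the threshold in each list among genes at 1 CPM or more, the genes within 1 Mb of CD200 and the likeness sets. NCR3LG1, RAET1G, RAET1L, CALR, ADAM10 and ADAM17 were added after their values were seen. Promoter windows of 250 bases before and 50 after the start came from a RefSeq table, which held a window for all 10 listed names and for 9 of the 18 neighbours. The tests, with DESeq2 1.42.0 and limma 3.58.1 as alternatives, were checked on simulated counts. The simulation changed 200 genes and held no library that deviated with GC content. It therefore does not cover the many changed genes or the deviating library of these data. Other scalings, filters and tests, a replicate block and each library left out were tried.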

Additional observations from a re-analysis of the deposited data

Results flagged for a closer look

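HLA-DRA, a class II antigen presentation gene, is on the leukocyte marker list but had no row on a primary chromosome. It had 355 counts over the 3 enzalutamide libraries and 0 over the 3 DMSO libraries on 1 alternate scaffold. A second HLA-DRA row, on another alternate scaffold, had 85 counts over the enzalutamide libraries and 0 over the DMSO libraries. Both stood out as signal absent from the controls in rows that no list used, since lists were matched on primary chromosomes. Both rows were part of the fit over all genes and of its shares. They met the table's floor through the enzalutamide libraries alone, so their values are a description with no test.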

How the results depend on the processing

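The calls of CD276, CD55, CD59 and PVR kept their direction and passed under all 9 alternatives and with each library left out. CD47, which did not pass (0.29), passed with upper quartile scaling (0.42) and with library size alone (0.32), and ranged from 0.19 to 0.42 with a library left out. CD46 (-0.08) was 0.0508 with upper quartile scaling and ranged from -0.16 to 0.0515 with a library left out, NECTIN2 from 0.35 to 0.64, and NECTIN3 from -0.34 to 0.093. Of the neighbours, PLCXD2 was 0.11 with upper quartile scaling, 0.0028 with library size alone and -0.19 to 0.10 with a library left out, and AC074044.1 ranged from -0.11 to 0.31. The cause of these shifts was not tested. Upper quartile scaling moved the median of all genes by 0.126 and gave 6409 higher and 4370 lower calls (59.5% higher), against 5450 and 5304 (50.7% higher) with TMM.

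Over all genes 8990 to 10834 passed under the alternatives and 9151 to 12924 with a library left out. NKG2D ligands past the threshold numbered 4 with upper quartile scaling and 1 to 3 with a library left out. GPI anchor genes ranged from 9 to 22 and sheddases from 5 to 10 with a library left out. The filter of at least 1 CPM in 3 libraries left fewer genes to test, with 4 checkpoint ligands past the threshold in either direction and 5 neighbours of CD200 higher. The count of neighbours lower was 0 with DESeq2 size factors, upper quartile scaling, library size alone, that filter and the replicate block, and 0 to 2 with a library left out.

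Replicate numbers were taken as names: same-numbered libraries deviated with correlations of -0.197, -0.229 and 0.0885, and no library correlated best with its own number except DMSO replicate 3. With the replicate block 5084 genes were higher and 5090 lower, no call of a listed gene changed, and among the neighbours of CD200 the calls of NEPRO and BOC (0.60) were lost. At this depth the single DMSO read of CD200 gives its ratio an interval of 121 to 26813.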
